A study of Mus musculus with 4 samples.

Results

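The regions described here are the mitochondrial regions and the extra-wide autosomal regions among those that the authors called as accessible by NA-seq. They were chosen by width and position from the deposited list of each library: any region of the mitochondrial genome, and any autosomal region of 4000 bp or wider. The rule found 2740 regions among the 308012 called in the 4 libraries together, which were 120 of 43335 in young control, 1076 of 80122 in young TSA, 835 of 97139 in old control and 709 of 87416 in old TSA. Only 9 of them were mitochondrial. The cells were fibro/adipogenic progenitors (FAPs), the mesenchymal cells that lie between muscle fibres, sorted from hind limb muscles of C57BL/6 mdx mice. All 4 groups carry the mdx mutation, which removes dystrophin and models Duchenne muscular dystrophy, so no group without it is at hand. Mice labelled young or old, with no age in weeks in the sources used here, received daily intraperitoneal trichostatin A (TSA) at 0.5 mg per kg or saline for 15 days. Every age was paired with either treatment, and a single library stands for each of the 4 pairings. The sort kept cells with Sca-1 and without Ter119, CD45, CD31 and α7 integrin at the surface. Pooling of animals is not stated in the sources used here. Region lists hold no expression values with which to check the cell type.

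In NA-seq a restriction enzyme enters intact nuclei and cuts DNA where chromatin is open, so a called region marks a stretch in which cut fragments accumulated. TSA inhibits histone deacetylases, and the acetylated histones that build up bind DNA less tightly. Mitochondrial DNA lies outside the nucleus, carries no nucleosomes and exists in many copies per cell, and an enzyme can cut it wherever nuclei are not fully freed of mitochondria. Arrays of repeated sequence are another known source of very wide signal, because reads from many copies can be placed on a few positions of the reference. The copy number of the stretches described below and the placement of reads with several matches are not stated in the sources used here, and their part in the results was not tested. The label under which the regions were grouped calls them tandem-like. The sequence of the regions was not analysed here, so the word could be checked against position alone. Between 18.6% and 39.3% of the autosomal regions so chosen in a library lay within 100 kb of another such region, so most had none that near. The share depended on the distance and was 53.1% in young TSA at 200 kb. The regions are called extra-wide here.

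There are no replicates, so the spread between animals is unknown and nothing was tested between groups. Depth cannot be read from lists without counts or scores. A region absent from a list is described as not called, which does not show closed chromatin. Width chose the regions, and counts and widths are therefore given as a description. Intervals are 95% exact binomial (Clopper-Pearson) intervals, which take regions as independent of each other and reflect counting error alone. Coordinates are of mm9 and count from 1.

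The mitochondrial genome was called in nearly the same places in every library. A first region, from 1101 to 3000, had identical ends in all 4 libraries. The second region began at 3201 in all 4 and ended at 6800 in young control, 7400 in old control and 7500 in both TSA libraries. The gap of uncalled sequence between these regions was thus common to all libraries. Another region, from 10101 to 12600, was called in old control only. The called length was 5500 bp in young control, 6200 bp in young TSA, 6200 bp in old TSA and 8600 bp in old control. Of the 8700 bp called in any library, 5500 bp (63.2%) were called in all 4.

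The authors' differential lists, which set TSA against control within each age, also hold mitochondrial regions. A list was taken to hold regions with more signal in the library whose files include it. At both ages these were in the list of regions with more signal after TSA (gained), and no mitochondrial region was in the list of regions with more signal in the control (lost). The young gained list held mitochondrial regions from 1101 to 3000, from 3201 to 5100 and from 5601 to 7500. The old gained list held those from 1101 to 3000 and from 3201 to 7000. Each set covered 5700 bp, or 91.9% of the mitochondrial length called in its TSA library. All of the old gained stretch also lay inside regions called in old control, so these calls differ in a level that the lists do not report and not in presence. The region of old control that began at 10101 was in no differential list.

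On the autosomes the libraries held 118 extra-wide regions in young control, 1074 in young TSA, 832 in old control and 707 in old TSA. These made up 0.275% (0.228 to 0.329%) of the autosomal regions of young control and 1.35% (1.27 to 1.44%) of those of young TSA. The shares were 0.875% (0.816 to 0.936%) in old control and 0.823% (0.764 to 0.886%) in old TSA. They covered 0.611 Mb, 5.28 Mb, 4.00 Mb and 3.44 Mb in the same order, or 0.908%, 3.77%, 2.43% and 2.34% of the autosomal length called. Young control thus stood lowest on each of these measures and young TSA highest.

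Most of the extra-wide regions lay close to the width limit. The median width was 4400 bp in young control, 4600 bp in young TSA, 4500 bp in old control and 4600 bp in old TSA. Regions of 4000 to 4400 bp numbered 62, 458, 386 and 312 in that order, and regions just outside the limit, of 3500 to 3900 bp, numbered 244, 1208, 1151 and 1008. Nothing in the widths sets the class apart at 4000 bp. Exactly 4000 bp was the width of 18 young control regions and exactly 3900 bp of 20. In young TSA these numbers were 112 and 149.

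The ratio of TSA to control regions in young mice depended on the width asked for. It was 1.85 over all autosomal regions, 3.76 at 2000 bp or wider, 5.02 at 3000 bp, 9.10 at 4000 bp and 11.6 at 5000 bp. Beyond that it became smaller, with 4.80 at 8000 bp, where young TSA had 24 regions and young control 5, and 2.33 at 10000 bp, where they had 7 and 3. In old mice the ratio stayed near 1 at all of these widths, from 0.800 at 12000 bp to 1.16 at 6000 bp. At 4000 bp it was 0.850, with 707 regions after TSA against 832. Between the controls, old to young, the ratio was 2.22 over all autosomal regions, 7.68 at 5000 bp and 2.00 at 10000 bp. The low number in young control was thus most pronounced in the middle of the width range. At the widest end all 4 libraries held a handful of regions each, from 3 to 7 at 10000 bp or wider. Calls of neighbouring pieces as 1 region or several move these counts. With regions closer than 500 bp merged, the counts became 294, 2181, 1879 and 1630, with ratios of 7.42 in young and 0.867 in old mice.

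**Figure D1:**
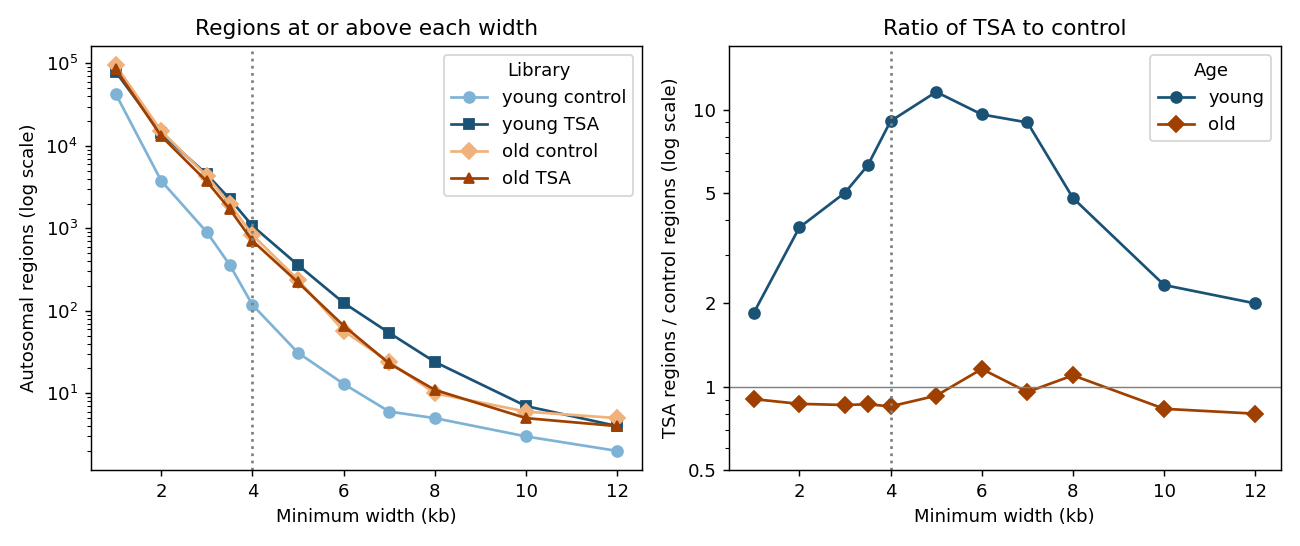
Left, autosomal regions (log scale) at or above each minimum width (kb) in the 4 libraries, with the 4 kb limit dotted. Right, the ratio of TSA to control regions (log scale) at each age. The young ratio climbs from 1.85 to 11.6 at 5 kb and is 2.33 at 10 kb, and the old ratio lies between 0.800 and 1.16.

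When neighbouring extra-wide regions of the 4 libraries were merged and then chained across gaps of up to 100 kb, 4 chains held at least 2 such regions in every library. They are called stacks here. The stack of chromosome 1 ran from 90108201 to 90205600 (97.4 kb). Chromosome 5 had a first stack at 15114201 to 15199500 (85.3 kb) and a second at 93910301 to 94137500 (227 kb). The stack of chromosome 11 ran from 3037001 to 3100900 (63.9 kb). Presence in every library was the condition for choosing them and is no result, and the condition was set after the data were seen. Which genes lie there is not analysed here.

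The 4 stacks held 20 extra-wide regions in young control, 20 in young TSA, 20 in old control and 23 in old TSA. Outside them the counts were 98, 1054, 812 and 684. In young mice TSA thus stood to control at 1.00 within the stacks and 10.8 beyond them, and in old mice at 1.15 and 0.842. Asking for regions in every library, the short young control list included, draws the counts inside the stacks together and raises the young ratio outside, so these numbers describe the division and are no evidence of a difference between the places. The stacks made up 16.9% of the extra-wide regions of young control, 1.86% of those of young TSA, 2.40% of old control and 3.25% of old TSA. They also held many of the widest calls. In young control all 5 regions of 8000 bp or wider lay in the stacks, and the widest region elsewhere was 6800 bp. In young TSA 19 of 24 such regions lay outside the stacks, with the widest at 10400 bp. In old control 4 of 10 and in old TSA 4 of 11 lay outside.

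**Figure D2:**
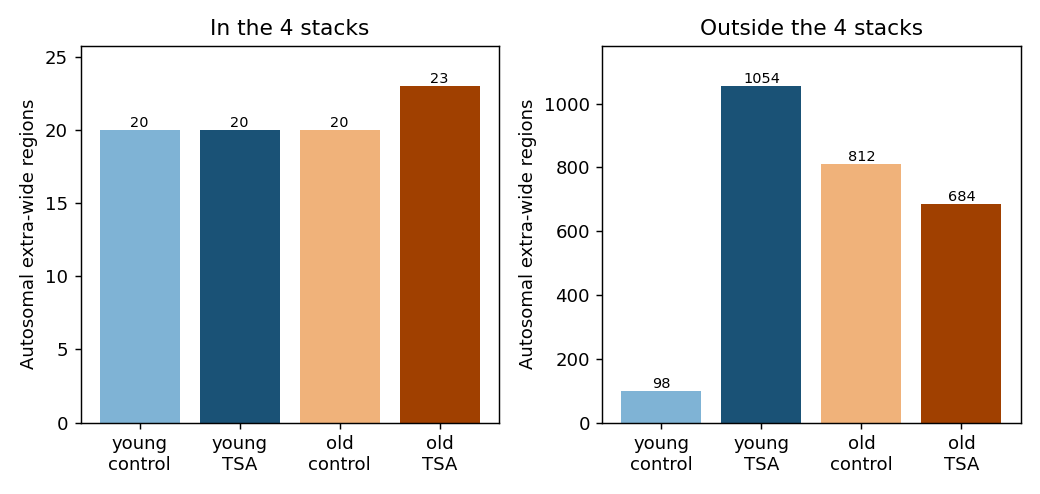
Autosomal extra-wide regions per library inside (left) and outside (right) the 4 stacks, each bar 1 library. The stacks hold 20, 20, 20 and 23 regions, a likeness that their choice favours, and the counts outside range from 98 in young control to 1054 in young TSA.

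The stack on chromosome 11 was covered almost end to end in every library, by 96.7% in young control, 95.9% in young TSA, 95.9% in old control and 96.6% in old TSA. What differed was where the calls broke. In young control the stretch from 3056401 to 3100900 was a single region of 44500 bp, the widest autosomal call of the series. Young TSA called the same stretch as 6 regions, the widest of 12200 bp, and old control as 6 regions with the same ends as those of young TSA. Old TSA also called 6, of which the second spanned 17800 bp. Neighbouring pieces were often only 100 bp apart, such as the pieces that ended at 3068600 and began at 3068701 in the other 3 libraries. From 3037001 to 3055500 both TSA libraries and old control called 1 region of 18500 bp, which young control split into 14900 bp and 2400 bp. The stack lies near the start of the sequence called on this chromosome. The lowest start on chromosome 11 was 3001001 in every library, and only 2 or 3 regions preceded the stack.

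The stack on chromosome 1 was covered by 72.9% in young control, 77.2% in young TSA, 78.7% in old control and 78.5% in old TSA. Its middle, from 90122401 to 90162400, was called as 6 regions in young control, the widest of 8400 bp. Young TSA called a region of 28700 bp there, old control one of 36200 bp and old TSA one of 21100 bp. These were the widest autosomal regions of their libraries. On the left flank young control had the widest call. From 90108201 to 90122200 young control had a region of 10100 bp, old control one of 6300 bp, and the TSA libraries none wider than 3900 bp. On the right flank, from 90194601 to 90205600, old TSA called 11000 bp as 1 region where the other libraries had at most 5500 bp.

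The stacks on chromosome 5 were more open in texture, with extra-wide regions separated by narrower ones and by gaps. The first was covered by 32.2% in young control, 35.8% in young TSA, 35.1% in old control and 34.8% in old TSA. It held the only locus of the 4 stacks or elsewhere whose extra-wide regions had identical ends in all 4 libraries, from 15114201 to 15118400. Further along, the locus from 15125001 to 15132600 was called whole, at 7600 bp, in both TSA libraries and old control and at 6800 bp in young control. The second was covered by 35.8%, 36.8%, 40.7% and 37.8% in the same order. It held 6 extra-wide regions in young control, 6 in young TSA, 5 in old control and 10 in old TSA, among 26 to 29 called regions per library. Its right end, from 94123301 to 94137500, was 1 region of 14200 bp in old control and 2 or 3 regions in the other libraries, the widest of 8900 bp in young control, 8200 bp in old TSA and 5100 bp in young TSA.

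**Figure D3:**
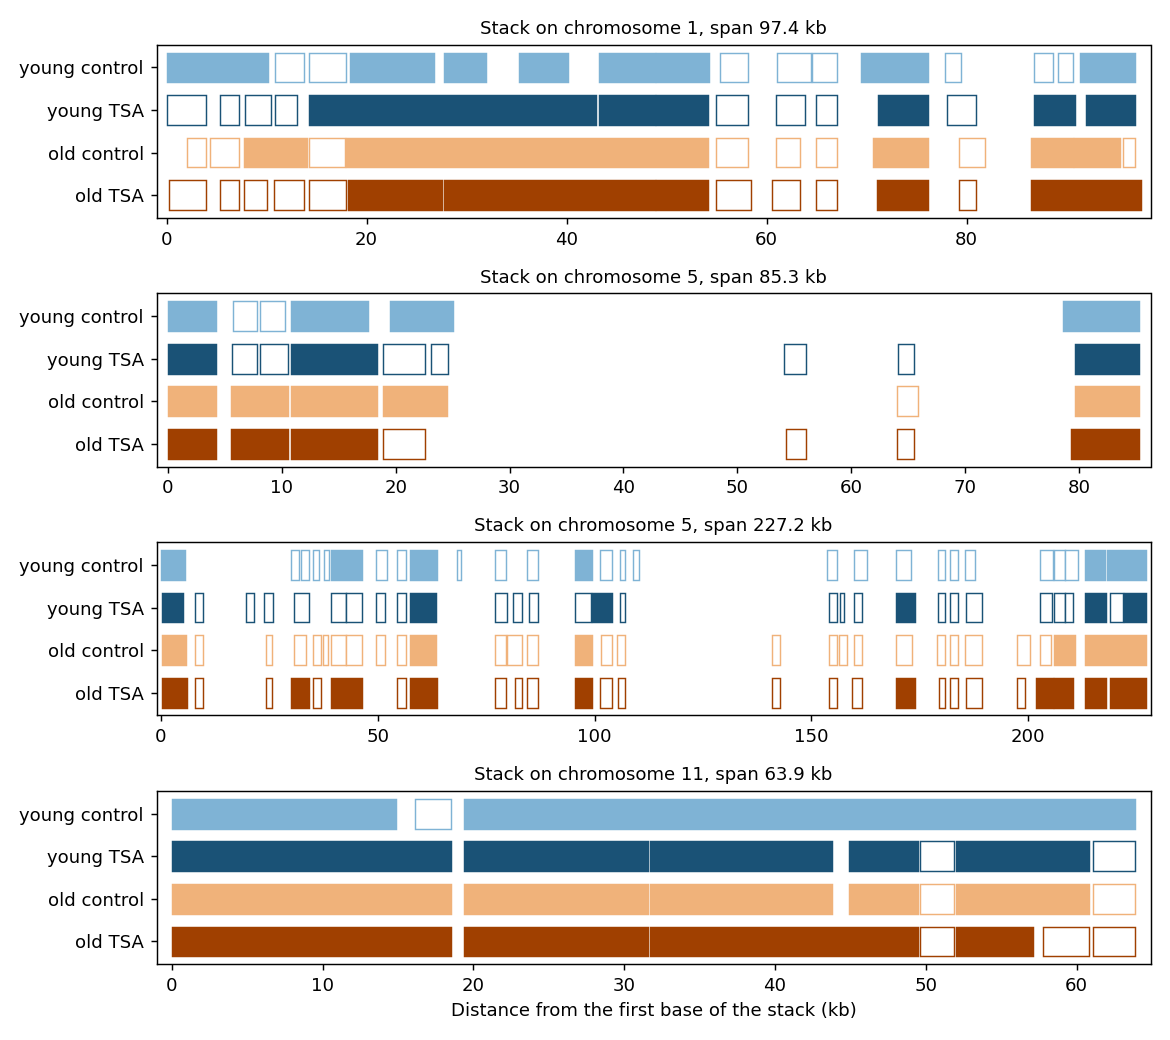
Called regions in the 4 stacks, drawn to scale by distance (kb) from the first base of each stack, 1 row per library. Filled bars are regions of 4000 bp or wider and open bars are narrower ones. On chromosome 11 the libraries cover 95.9 to 96.7% of the span and break it at different points.

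Sharing between libraries was described in both senses, as another extra-wide region at the same place and as a call of any width there. Among the 118 regions of young control, 57.6% (48.2 to 66.7%) met an extra-wide region of young TSA, 42.4% met one of old control and 43.2% met one of old TSA. From the other side only 6.42% (5.03 to 8.06%) of the young TSA regions, 5.77% of the old control and 7.21% of the old TSA regions overlapped an extra-wide region of young control. The longer lists shared more with each other. Young TSA regions were extra-wide in old control in 23.6% and in old TSA in 24.0% (21.5 to 26.7%) of cases. Old control regions were extra-wide in young TSA in 30.0% and in old TSA in 28.8%. Old TSA regions were extra-wide in young TSA in 36.2% and in old control in 34.1%. For each of these 3 libraries the paired values lay inside each other's counting intervals. The lists differ in length, which bears on each of these shares.

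In lists of equal length, the 118 widest regions of each library, the young control list shared 11.0% (6.00 to 18.1%) with young TSA, 18.6% with old control and 18.6% with old TSA. Old control shared 27.1% (19.3 to 36.1%) with old TSA and 18.6% with young TSA. The larger share of young control regions found in young TSA above was thus not seen at equal length. The 118th widest region was 4000 bp in young control, 6000 bp in young TSA and 5500 bp in both old libraries.

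Nearly every extra-wide region had some call at its place in another library. In a given library this was more often a narrower call. The exception was young control regions in young TSA, where 68 met an extra-wide region and 49 only narrower ones. Of the young TSA regions, 69 were extra-wide in young control, 789 were called there only by narrower regions and 216 (20.1%) were not called. The narrower calls had a median width of 1900 bp and covered a median of 47.1% of the young TSA region. In old control only 56 young TSA regions (5.21%) and in old TSA only 44 (4.10%) were not called. Of the old control regions, 34.3% were not called in young control, 5.53% not in young TSA and 4.33% not in old TSA. Of the old TSA regions, 27.9%, 3.39% and 4.38% were not called in young control, young TSA and old control. Young control is the library in which the fewest were found, for each of the other 3. The same order held over all autosomal regions. Of these, 30.7% from young TSA, 23.2% from old control and 26.2% from old TSA were called in young control. Their shares called in the remaining libraries were 47.3 to 56.7%, so a low share in young control is not particular to extra-wide regions. Of the 118 extra-wide regions of young control, 1 was not called in young TSA and 11 were not called in each of the old libraries. The shares called were 99.2% in young TSA, 90.7% in old control and 90.7% in old TSA. Over all autosomal regions of young control they were 57.2%, 51.6% and 52.6% in the same order.

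The overlap is partly a matter of width, since a wide region meets more of any list. Over all autosomal regions of young TSA, 30.7% were called in young control, against 79.9% of the extra-wide and 65.9% of those of 3500 to 3900 bp. Asking only for the middle base of the region takes the width out on that side. The middle base of extra-wide young TSA regions lay in a young control region in 46.5% of cases, that of regions of 3500 to 3900 bp in 46.4%, and that of all autosomal regions in 27.9%. Over the 12 ordered pairs of libraries the middle base of extra-wide regions was called more often than that of all autosomal regions every time. Against regions of 3500 to 3900 bp it was higher in 5 pairs and lower in 7. By this measure the width limit marks no change in sharing.

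**Figure D4:**
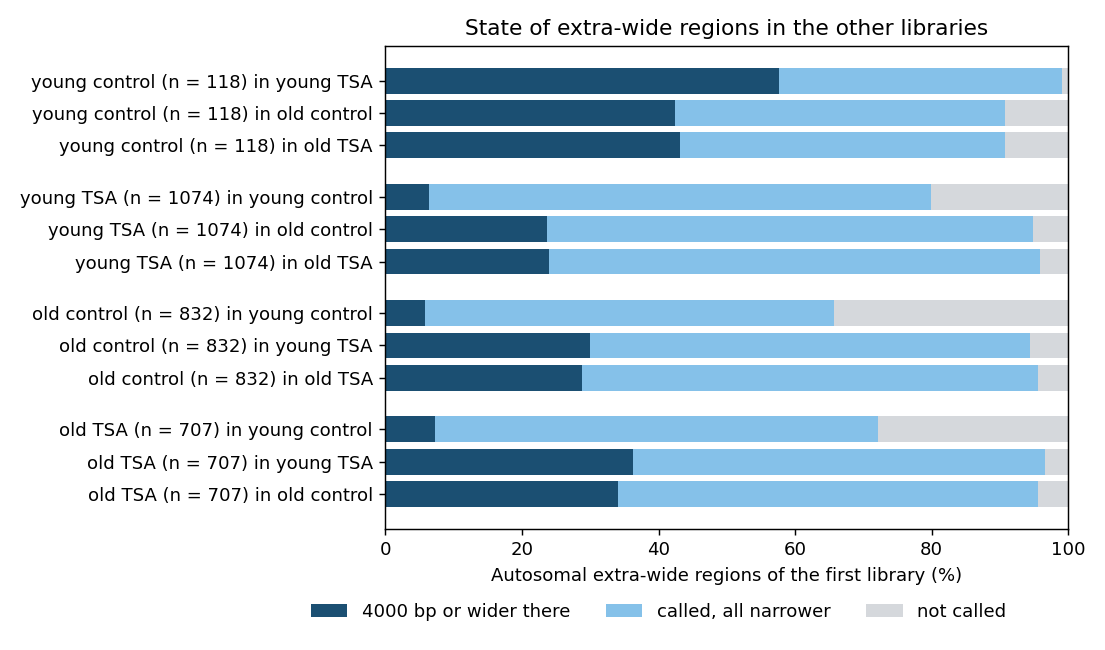
State of the autosomal extra-wide regions of each library (n in brackets) in each of the other libraries, in % of the regions of the first library. Dark bars are regions that overlap an extra-wide region there, light bars regions met only by narrower calls, grey bars regions not called. The grey share is 20.1 to 34.3% in young control and at most 9.32% in the other libraries. Among all autosomal regions of the other libraries, too, the share not called is largest in young control.

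Merging the extra-wide regions of the 4 libraries gave 2035 loci. A single library had the extra-wide call at 1546 of them (76.0%). At 330 loci (16.2%) it was found in 2 libraries, at 132 (6.49%) in 3 and at 27 (1.33%) in every library. At any width, 1332 loci (65.5%) were called in all 4 libraries. Most loci that were extra-wide in a single library were also met by some call in all the others. An overlap of 1 bp was enough for this, and a wide locus meets more of any list by its width alone. No matching share was taken over all regions. Of the 690 loci extra-wide in young TSA alone, 473 (68.6%) were called at some width in all of the other libraries and 3 in none. For the 474 loci of old control alone these numbers were 241 and 11, for the 346 of old TSA alone 187 and 4, and for the 36 of young control alone 23 and 1. The young control locus found nowhere else lay on chromosome 4 from 55360601 to 55365000. Those of young TSA were at 173911001 to 173915300 and 179853001 to 179857600 of chromosome 2 and at 26582601 to 26587400 of chromosome 14. Those of old TSA were at 43305501 to 43309500 of chromosome 1, at 106983901 to 106988400 of chromosome 3, and at 38629401 to 38633700 and 117022801 to 117026900 of chromosome 5. They were picked for naming once their values were known.

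Loci shared by exactly 2 libraries were spread almost evenly among the 3 long lists. Young TSA and old TSA shared 103 loci that neither control had as extra-wide. Young TSA and old control shared 103, and old control and old TSA 98. The controls of both ages shared 7. Of the 135 loci that were extra-wide in the 3 other libraries, young control lacked 108 (80.0%). It had no call at 16 of them, and at the remaining 92 a narrower one. The median width there over the 108 loci, with 0 where nothing was called, was 1900 bp, and young control covered a median of 42.8% of the locus. The corresponding numbers were 13 of 40 loci for old control, 8 of 35 for old TSA and 3 of 30 for young TSA, and each of these was called there at a lesser width. A shorter list lacks more loci by itself.

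Of the 27 loci extra-wide in all 4 libraries, 12 (44.4%) lay in the stacks, whose choice favours such loci. Among the other 15, of which 4 are given here, the locus on chromosome 7 from 46528801 to 46536500 was the widest in its narrowest library. It spanned 6700 bp in young control, 6700 bp in young TSA, 7400 bp in old control and 7700 bp in old TSA. The next 3 were picked after their values were seen. On chromosome 12 from 66063401 to 66070900 young control was widest, with 6800 bp in young control, 5600 bp in young TSA, 5600 bp in old control and 4900 bp in old TSA. On chromosome 17 from 34738701 to 34743700 young control had 4600 bp and the other 3 libraries 5000 bp each. On chromosome 3 from 103538201 to 103543400 young control had 5200 bp and the others 4600 bp. At these shared loci young control was thus not always the narrowest.

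The widest loci outside the stacks were chosen by their merged width, which favours a wide call in any 1 library. On chromosome 8 from 73293301 to 73306300 young TSA called a region of 10100 bp, young control 5100 bp, old TSA 4700 bp and old control at most 1900 bp. On chromosome 18 from 9484401 to 9494900 old control called 10500 bp, young TSA 8200 bp, old TSA 6200 bp and young control at most 1600 bp. On chromosome 7 from 35819901 to 35830300 young TSA called 10400 bp, both old libraries 5500 bp and young control at most 2800 bp. On chromosome 2 from 156890901 to 156901000 young TSA called 10100 bp as 1 region, whereas the other libraries had 3 or 4 regions of at most 3600 bp there, which covered 56.4% in young control, 64.4% in old control and 73.3% in old TSA. In 3 of these 4 loci the widest call was in young TSA.

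Where extra-wide regions of 2 libraries overlapped, part of their ends coincided on the 100 bp grid of the lists. The matching share over all autosomal regions was not taken, so whether this is particular to extra-wide regions cannot be said. Of the 254 overlapping pairs of young TSA and old control, 22.4% had the same start and end, and 63.4% shared at least 1 end. Among the 243 pairs of old control and old TSA 21.4% had both ends in common, and 57 of the 259 pairs of young TSA and old TSA did. With young control the shares were 12.7% for young TSA, 15.1% for old control and 13.2% for old TSA, over 71, 53 and 53 pairs.

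Runs of extra-wide regions with gaps of up to 100 kb were most frequent in the longest list. In young TSA 422 of 1074 regions (39.3%, 36.4 to 42.3%) were in a run with at least 1 other. The numbers were 237 of 832 in old control (28.5%), 188 of 707 in old TSA (26.6%) and 22 of 118 in young control (18.6%). Denser lists form more runs by their length alone. Outside the stacks 38.1% of the regions were in a run in young TSA, 26.7% in old control and 24.1% in old TSA. In young control it was 2.04%. Each stack had to hold at least 2 extra-wide regions of young control, so this low share is tied to the choice of the stacks and is no separate result. The run with the most regions was in the stack on chromosome 1 in young control (8 regions) and in the second stack on chromosome 5 in old TSA (10 regions). In old control 5 runs were tied at 5 regions, the stack on chromosome 1 among them. In young TSA it lay outside the stacks, on chromosome 8 from 72974401 to 73442100, with 10 regions of 4000 to 10100 bp that filled 12.8% of 468 kb.

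Over the merged loci 982 of 2035 (48.3%) were in a run, in 356 runs of which 136 held 3 or more loci. The longest outside the stacks was on chromosome 8 from 72825401 to 73442200, with 14 loci over 617 kb. Of these, 8 were extra-wide in a single library and none in all 4, and young TSA contributed 12 extra-wide regions, old TSA 7, old control 5 and young control 1. On chromosome 5 from 125515401 to 125985300 a run of 13 loci over 470 kb had 9 in a single library and 1 in all 4. Runs of 10 loci on chromosome 10 from 79006701 to 79393800 and of 9 loci on chromosome 2 from 25913901 to 26497900 had none in all 4. In the second stack of chromosome 5, of 9 loci over 227 kb, 4 were extra-wide in all 4 libraries. Long runs thus came in both forms, loci repeated across libraries as in the stacks and loci that were each wide in different libraries.

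Extra-wide regions lay among other called regions more densely than regions at large. Within 50 kb of their ends, the median number of other called regions was 9 in young TSA, against 5 for all autosomal regions of that library. It was 8 against 5 in old control, 8 against 5 in old TSA and 5 against 3 in young control. For regions of 3500 to 3900 bp the medians were 8, 7, 7 and 4, just under those of the extra-wide. By chromosome, the most extra-wide regions per 1000 called regions were on chromosome 5 in young control (6.66), chromosome 11 in young TSA (19.1) and chromosome 7 in old control (15.0) and old TSA (13.0). Chromosome 7 held 100 of the 832 extra-wide regions of old control (interval of the share 9.89 to 14.4%) and 6.99% of all its autosomal regions. In old TSA these shares were 11.5% (9.20 to 14.0%) and 7.23%, and in young TSA 9.03% (7.38 to 10.9%) and 7.21%. In young control the excess on chromosome 5, 16.1% (9.98 to 24.0%) against 6.65%, includes the 10 extra-wide regions of its stacks.

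The authors' differential lists were then read at the extra-wide regions. Of the 1074 regions of young TSA, 478 (44.5%, 41.5 to 47.5%) overlapped the young gained list, where 10.4% of all autosomal regions of that library did. Regions of 3500 to 3900 bp stood at 33.5%. The part of width in the difference was not tested. The authors' lists set against each other the same libraries whose called widths chose the regions. At both ages this favours overlap with the list of a library's own direction, so a larger share there is no separate result. By length, 17.2% of the sequence of the extra-wide regions was in the gained list, against 9.28% for all regions. The gained stretches were usually a part of the region and not the whole. The 535 autosomal gained regions that met an extra-wide region of young TSA had a median width of 1700 bp, the same as the whole list, and 52 of the 478 extra-wide regions held 2 or more of them. Of the young TSA regions 7 (0.652%) also overlapped the young lost list, with 0.0970% of all regions there.

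Extra-wide regions of young control overlapped the gained list as well. Of the 118, 34 (28.8%, 20.8 to 37.9%) did, against 5.60% of all young control regions and 26.2% of those of 3500 to 3900 bp. Only 7 (5.93%, 2.42 to 11.8%) overlapped the lost list, of regions higher in the control, against 1.04% of all regions. Outside the stacks the share in the lost list was 2.04%. The lists differ in length, with 8362 regions in the gained and 468 in the lost list, so the shares in them cannot be set against each other.

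In old mice each TSA and control library met the list of its own direction in similar shares. Of the 832 regions of old control, 103 (12.4%, 10.2 to 14.8%) overlapped the lost list, against 4.42% of all its autosomal regions and 11.4% of those of 3500 to 3900 bp. Of the 707 regions of old TSA, 83 (11.7%, 9.46 to 14.3%) overlapped the gained list, against 4.01% and 8.04%. By length the lists differed little between the classes. The lost list covered 3.56% of the extra-wide sequence of old control and 3.46% of all its autosomal sequence, and the gained list 3.42% of the extra-wide and 2.98% of all sequence of old TSA. In the opposite directions, 28 old control regions (3.37%) met the gained list, against 0.875% of all regions, and 21 old TSA regions (2.97%) met the lost list, against 1.23%.

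The widest extra-wide regions that met a list of their own library included calls of the stacks. Among young TSA regions that met the gained list, the widest was the 28700 bp call on chromosome 1, with 2 gained regions over 3300 bp (11.5% of its width). The chromosome 11 calls of 18500 bp and 12100 bp held 1 gained region each, of 3600 bp and 1400 bp. These chromosome 11 calls also held 4300 bp and 7300 bp of the young lost list, more than of the gained list. Outside the stacks, the 10400 bp call on chromosome 7 held 2600 bp (25.0%), and the 10100 bp call on chromosome 2 held 3 gained regions over 5100 bp (50.5%). In young control the 14900 bp call on chromosome 11 held 2 lost regions over 4300 bp (28.9%) and a gained region of 3600 bp. The 10100 bp call of young control on chromosome 1 held 1000 bp of the lost list. The 6800 bp call on chromosome 12 and the 6500 bp call on chromosome 4, at 147029201 to 147035700, held 1200 bp and 1000 bp of the lost list. The chromosome 12 call also held 2600 bp of the gained list.

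Among the widest calls of old mice, each held a single listed region of its own library's list. The 36200 bp call of old control on chromosome 1 held a lost region of 1200 bp (3.31%), and the 21100 bp call of old TSA there a gained region of 1000 bp (4.74%). Both calls also met the opposite list, with 1000 bp gained in the former and 1200 bp lost in the latter. The chromosome 11 call of 18500 bp had the same ends in both old libraries. In each of them it held 1000 bp of the lost list and 1000 bp of the gained list. Old control calls of 8800 bp on chromosome 11, 8000 bp on chromosome 8 and 7200 bp on chromosome 9 held 1900 bp, 1000 bp and 1100 bp of the lost list. The 8800 bp call also held 1700 bp of the gained list. The 17800 bp call of old TSA on chromosome 11 and its calls of 7300 bp on chromosomes 4 and 8 held 1300 bp, 1100 bp and 1000 bp of the gained list. The remaining named calls of old mice met no region of the opposite list.

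**Figure D5:**
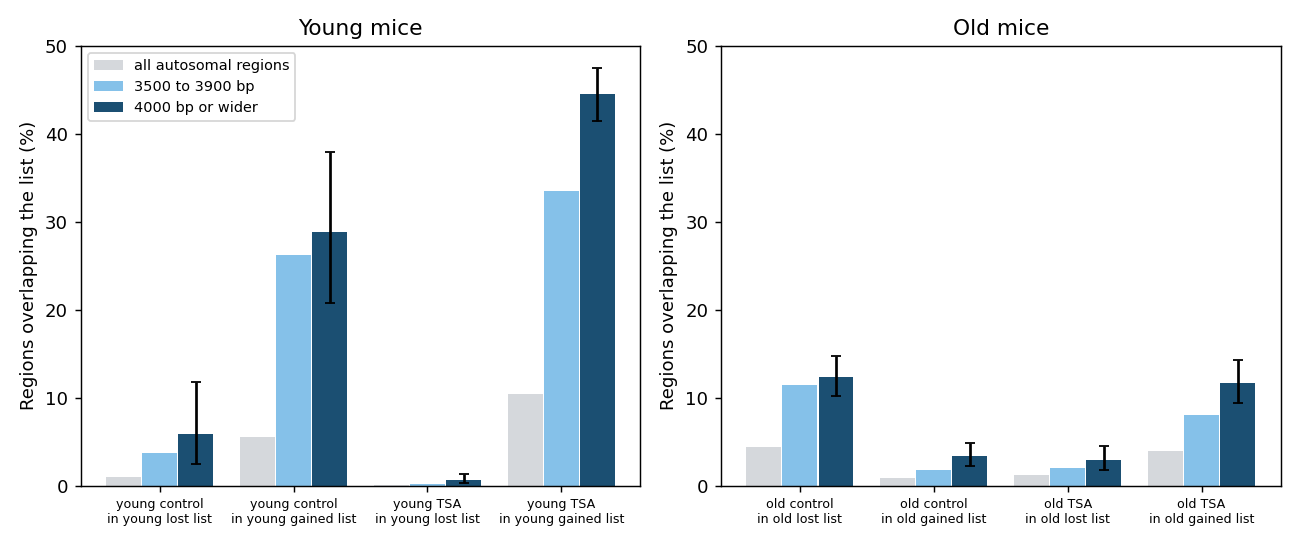
Share of regions (%) that overlap the authors' gained or lost list of the same age, for all autosomal regions, those of 3500 to 3900 bp and those of 4000 bp or wider, with 95% exact binomial intervals on the last. The extra-wide regions of young TSA stand at 44.5% in the gained list, and no share in old mice is above 12.4%. Regions and lists come from the same libraries, which favours overlap in a library's own direction.

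The differential lists themselves rarely reached this width. The young gained list held 9 autosomal regions of 4000 bp or wider and the young lost list 2, while neither old list held any. Both young lost regions lay in the chromosome 11 stack, from 3069701 to 3074100 and from 3093301 to 3098300, inside the 44500 bp call of young control. The TSA library of the same age covered all of the first and 94.0% of the second. Of the 9 gained regions, 6 had no young control call, and 4 lay wholly inside an extra-wide region of young TSA. The widest gained region spanned 7200 bp on chromosome 10, between 74398101 and 74405300. It was met by a region of 7000 bp in young TSA, 4400 bp in old control and 4100 bp in old TSA, and by none in young control. The next spanned 6000 bp on chromosome 12, between 109543901 and 109549900, inside a region of 7300 bp in young TSA. The other libraries had regions of at most 1100 bp (young control), 3500 bp (old control) and 2200 bp (old TSA) there.

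The stacks held 16 of the 468 regions of the young lost list (3.42%, 1.97 to 5.49%) and 5.41% of its length, against 52 of the 43335 young control regions. For the young gained list the share was 0.0957% (8 regions), against 0.0736% of young TSA regions. The old lost list had 0.0698% (3 regions), against 0.0566% of old control regions, and the old gained list 0.143% (5 regions), against 0.0618% of old TSA regions. By length the stacks held 5.41% of the young lost, 0.119% of the young gained, 0.0687% of the old lost and 0.130% of the old gained list. A very wide call counts as 1 region, and the matching share of each library by length was not taken. For the young gained and both old lists an excess in the stacks therefore cannot be read from the counts. The chromosome 11 stack alone held 10 young lost and 3 young gained regions, with 2 old lost and 3 old gained. The chromosome 1 stack held 3 young lost, 3 young gained, 1 old lost and 2 old gained. The first stack of chromosome 5 held 2 young gained regions and no other, and the second held 3 young lost regions and no other. Gained and lost regions of the same age thus lay side by side within a stack, also inside a single call. The 44500 bp region of young control held 8 lost regions over 22000 bp and 2 gained regions over 3300 bp.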

How the data were processed

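The authors deposited coordinates alone: for every library a list of called regions and a differential list, 8 lists in all, without counts or scores. Bowtie 0.12.7 and mm9 stand in the submitters' processing notes. The region caller and threshold, the differential test, the handling of reads with several matches, and the enzyme of each library (NlaIII or HpaII, per the labels' protocols) are not stated in the sources used here. Ends lie on a grid of 100 bp, which limits the precision of every width, and depth is unknown.

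Samples were grouped by title. The regions, lists and comparisons were chosen with earlier results of these data known. Overlap means at least 1 bp, loci are merged extra-wide regions of the 4 libraries, and runs chain neighbours with gaps of up to 100 kb. Named are all mitochondrial regions, the 10 widest loci, the 5 loci extra-wide in all 4 libraries with the widest narrowest call, the richest run of each library and the 5 widest extra-wide regions that met each library's own differential list. Other regions were picked after their values were seen. All runs of 3 or more loci were to be named. As there were 136, only those of 9 or more are, with the stacks, and this was decided after their values were seen. Alternatives changed the width limit, the overlap, the gap and the merging of neighbours. Python 3.11.15, numpy 2.4.6, pandas 2.3.3, scipy 1.17.1 and matplotlib 3.10.9 were used, and the functions were tested on simulated regions (15 cases, 0 wrong). Genes and sequences were not analysed here, since the tables at hand are of another build than mm9.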

Additional observations from a re-analysis of the deposited data

Results flagged for a closer look

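At the limit of 4000 bp the TSA library held 9.10 times as many autosomal extra-wide regions as control in young mice and 0.850 times as many in old mice, on opposite sides of 1. The old ratio depended on the limit and was 1.16 at 6000 bp and 1.10 at 8000 bp. With a single library behind each number, this difference between ages was not tested.

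Regions of 4000 bp or wider on chromosomes X and Y lie outside the rule. The young TSA library held 5 of them against 4 in young control, and old TSA held 10 against 9 in old control. Per 1000 regions called on X or Y these were 6.71 in young TSA, 9.32 in young control, 6.56 in old TSA and 4.48 in old control. On the autosomes the values were 13.5, 2.75, 8.23 and 8.75 in the same order. In young control all 4 were on Y and none on X. In old TSA 7 were on X and 3 on Y.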

How the results depend on the processing

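No paired analysis was possible because each group has 1 library, and leaving out replicates was not possible for the same reason. Values in series follow the order young control and TSA, then old control and TSA. The number of autosomal extra-wide regions was 362, 2282, 1983 and 1715 from 3500 bp, 31, 359, 238 and 221 from 5000 bp, and 294, 2181, 1879 and 1630 with regions closer than 500 bp merged. The share with an extra-wide region in another library was 69.5%, 35.8%, 43.0% and 51.1%, and became 28.0%, 28.8%, 39.0% and 41.5% among the 118 widest of each, and from 5000 bp 29.5% in young TSA and 46.2% in old TSA. The share with any call in another library was 99.2%, 99.7%, 98.7% and 99.4%. It became 91.5%, 88.3%, 86.7% and 91.8% when at least 50% of the region had to be covered, 90.7%, 85.6%, 85.9% and 87.0% at the middle base, and 100%, 100%, 99.6% and 100% from 5000 bp. In runs were 27.6%, 18.4% and 16.0% of young TSA, old control and old TSA with gaps of up to 50 kb, 17.5%, 11.2% and 8.49% with 20 kb, and 53.1%, 39.3% and 40.9% with 200 kb. Outside the stacks 2.04% of young control regions were in a run. From 5000 bp, 54.3% of young TSA regions met the gained list and 19.4% of young control regions the lost list. At 4000 bp the latter share was 5.93%, and 2.04% outside the stacks. The other 37 of 80 alternative values stayed within the counting interval, or for counts near the first value. The alternatives by stacks, by equal lists and by the middle base were chosen after the data were seen. Calls are of unknown depth, so a region just under the calling threshold and an absent one cannot be told apart.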
